A study of Saccharomyces cerevisiae with 8 samples.

Results

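The genes described here are 42 of the 5449 genes measured on the arrays: 25 enzymes and associated proteins of ergosterol synthesis, 5 transcription regulators of sterol and oxygen-responsive genes, 4 genes of sterol uptake and esterification, 2 oxygen-requiring enzymes outside the sterol pathway, and 6 cell wall mannoproteins made when oxygen is low. They were chosen by name from textbook pathway knowledge, and each was represented by 1 probe set. RNA was measured on Affymetrix Yeast 2 arrays in 3 Saccharomyces cerevisiae strains of the BY4741 background, which all carry his3Δ1, leu2Δ, met15Δ and ura3Δ alleles. Wild type (3 arrays) was set beside Δpde2 (3 arrays), which lacks the high affinity cAMP phosphodiesterase Pde2p (allele Δpde2::KanMx), and Δpde2Δtpk3 (2 arrays), which also lacks the protein kinase A catalytic subunit Tpk3p (alleles Δpde2::HIS3 and Δtpk3::KanMx). All 3 strains, controls included, were grown in YPD and given 4 mM cAMP for 24 h, so the comparisons are between genotypes under cAMP and no array without cAMP was used.

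Ergosterol is the main sterol of the yeast plasma membrane and is made from acetyl-CoA through mevalonate, farnesyl pyrophosphate, squalene and lanosterol. Several late steps, like the making of unsaturated fatty acids and of haem, consume molecular oxygen, so yeast without oxygen cannot make sterols and takes them up from the medium through the transporters Aus1p and Pdr11p. In air the haem-induced repressor Rox1p holds down a set of hypoxic genes, and when sterols run short the factors Upc2p and Ecm22p turn on sterol synthesis, sterol uptake and the DAN and TIR mannoproteins of the cell wall. The BY4741 lineage carries a HAP1 allele weakened by a Ty1 insertion, and Hap1p is the haem-responsive activator of ROX1 and of several sterol genes.

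Signals are given on the log2 scale after quantile normalization, and a difference of 1 is a 2-fold change. PDE2 lay between 4.89 and 5.18 in the 5 mutant arrays against 9.13 to 10.73 in wild type. TPK3 lay at 4.37 and 4.97 in Δpde2Δtpk3 against 8.57 to 8.84 elsewhere, so PDE2 and TPK3 followed the labels. Signals of the marker genes mutated in all strains were less even. MET17 (also MET15) gave 8.27 in Δpde2 replicate 1 against 5.63 and 5.59 in replicates 2 and 3. It gave 7.39 in wild type replicate 1 against 5.63 and 5.73 in replicates 2 and 3. LEU2 ran from 5.48 in Δpde2Δtpk3 replicate 2 to 7.72 in Δpde2 replicate 1. URA3 was at most 4.91 and HIS3 at least 10.88 on any array. The cause of these marker signals was not tested. Wild type replicate 1 stood apart: across all genes it correlated with the other wild type arrays at 0.868 and 0.878, whereas those correlated with each other at 0.992. It also gave more signal for genes of α mating type, such as MF(ALPHA)1 at 9.20 against 7.17 and 6.79, although BY4741 is a MATa strain. For MF(ALPHA)1, wild type replicates 2 and 3 also lay above the 5 mutant arrays (5.60 to 5.93), while for MF(ALPHA)2 they overlapped with them. Many of the 42 genes differed on wild type replicate 1: its value lay above the mean of wild type replicates 2 and 3 for 35 of them, with a median difference of 0.45 against 0.12 over all genes, and by more than 0.5 for 20 of them (47.6%, against 25.5% of all genes). Counts and the values of the genes described are therefore given with all 8 arrays and without this array, and its part in the results was not tested beyond that. Nothing in the labels says that the wild type arrays came from separate cultures, so p-values measure the spread between arrays, whose number limits the precision. RNA came from whole cultures, in which a lower level in each cell and fewer cells with the RNA cannot be told apart.

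**Figure D1:**
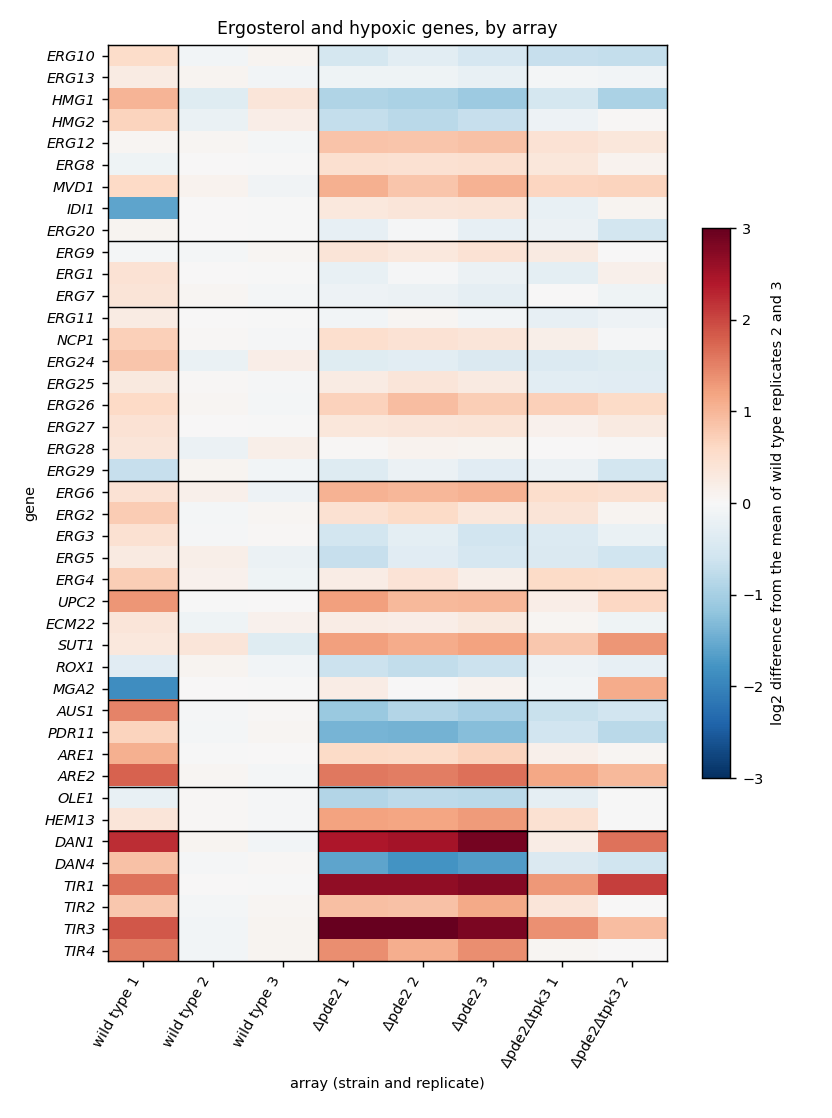
Log2 signal of the 42 genes (rows, grouped by role) on each of the 8 arrays (columns), shown as the difference from that gene's mean over wild type replicates 2 and 3. The mannoproteins TIR1 and TIR3 are higher in the Δpde2 columns and DAN4 is lower, and wild type replicate 1 differs from the other wild type columns in many rows.

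The comparison of Δpde2 with wild type asks what loss of the phosphodiesterase changed under cAMP. Among the 42 genes the largest increases were in the mannoproteins TIR3 (5.37-fold) and TIR1 (4.41-fold), and the largest decreases were in the mannoprotein DAN4 (3.93-fold lower) and the sterol importers PDR11 and AUS1 (3-fold and 2.82-fold lower). Of the sterol synthesis enzymes, 6 of 25 rose (24%, against 19.5% of all genes) and 5 fell (20%, against 21.9% of all genes). The enzymes acting on mevalonate (ERG12, ERG8 and MVD1) were on the rising side and both HMG-CoA reductases on the falling side. With limma and Benjamini-Hochberg adjustment over all genes, calling a gene at an adjusted p under 0.05, 10 of the 42 genes rose (23.8%, against 19.5% of all genes) and 10 fell (23.8%, against 21.9% of all genes). Those shares were close to the shares over all genes. Without wild type replicate 1, 21 rose (50%, against 31.4% of all genes) and 11 fell (26.2%, against 29.4% of all genes), and these included all 20 genes called with 8 arrays. The median change of the 42 genes was 0.19 with all arrays and 0.28 without that array, beside 0.03 and 0.02 over all genes. Calls for 11 of the 20 genes held whichever single array was left out: HMG2, ERG12, ERG8, ERG6, SUT1, PDR11, OLE1, HEM13, DAN4, TIR1 and TIR3. The count fell to 13 without Δpde2 replicate 1 and to 12 without Δpde2 replicate 3.

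**Figure D2:**
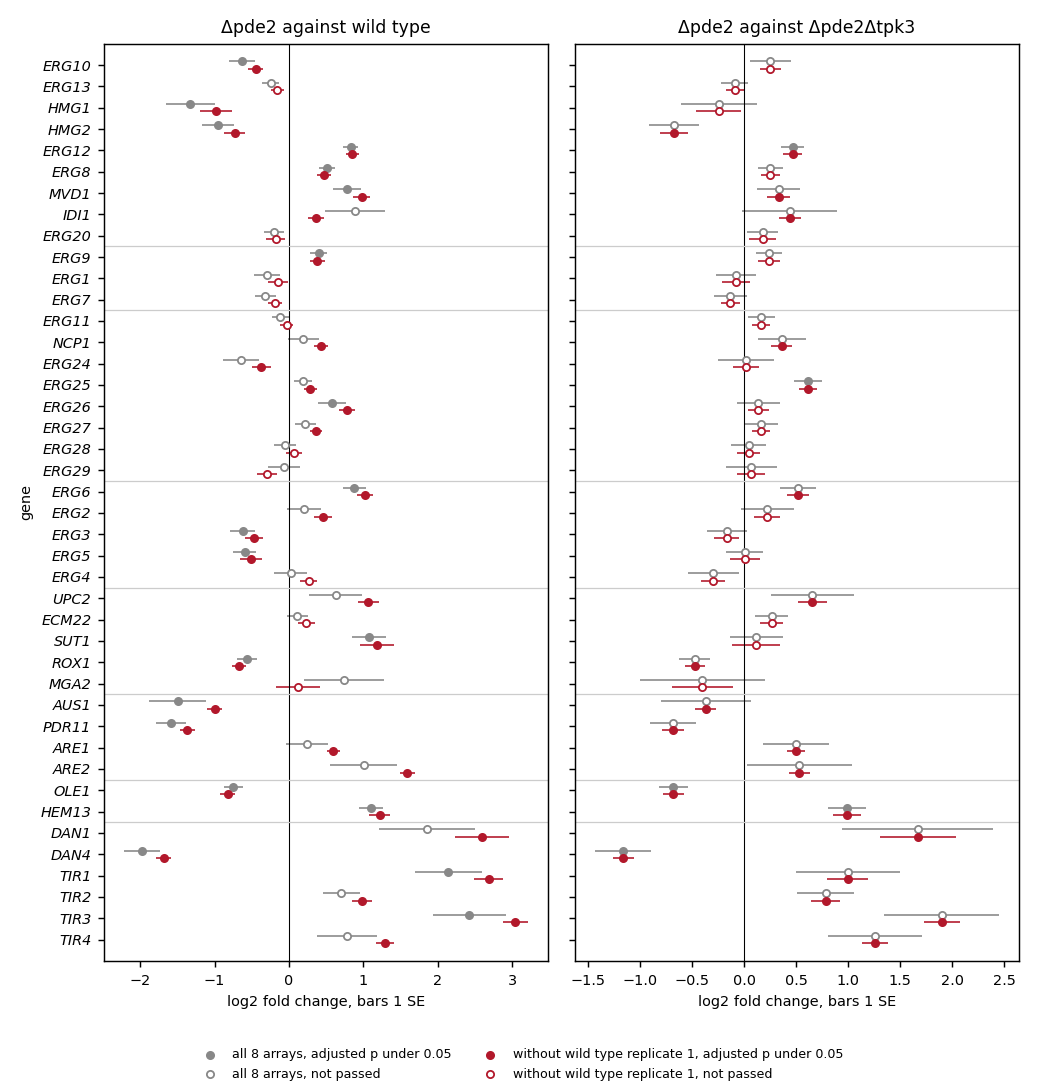
Log2 fold change of each of the 42 genes in Δpde2 against wild type and in Δpde2 against Δpde2Δtpk3, with all 8 arrays and without wild type replicate 1. Points are limma estimates and bars are 1 SE, filled points passed an adjusted p of 0.05, and TIR3 has the largest increase and DAN4 the largest decrease in both panels.

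The mannoproteins encoded by the DAN and TIR genes are serine- and alanine-rich, glycosylphosphatidylinositol-anchored proteins that replace other wall proteins in anaerobic cells. TIR3 gave 9.35 in wild type replicate 1, 7.40 and 7.58 in replicates 2 and 3, 10.58, 10.72 and 10.32 in Δpde2, and 8.87 and 8.41 in Δpde2Δtpk3. All 3 Δpde2 arrays lay above the other 5, and TIR3 rose against wild type by 2.42 ± 0.49 (SE, adjusted p = 0.00783) with all 8 arrays and 3.04 ± 0.17 (SE, adjusted p = 2.05e-05) without wild type replicate 1. TIR1 gave 10.75 in wild type replicate 1, 9.12 and 9.10 in replicates 2 and 3, 11.76, 11.77 and 11.86 in Δpde2, and 10.42 and 11.18 in Δpde2Δtpk3. Again the Δpde2 arrays were the highest, the Δpde2Δtpk3 arrays lay above wild type replicates 2 and 3, and TIR1 rose by 2.14 ± 0.45 (SE, adjusted p = 0.00893) with all 8 arrays and 2.68 ± 0.20 (SE, adjusted p = 5.02e-05) without wild type replicate 1. DAN1 gave 7.44 in wild type replicate 1, 5.30 and 5.13 in replicates 2 and 3, 7.65, 7.70 and 8.09 in Δpde2, and 5.44 and 6.86 in Δpde2Δtpk3. For DAN1 the Δpde2 arrays were above every other array, though wild type replicate 1 lay just below them, and its difference was 1.86 ± 0.65 (SE, adjusted p = 0.0546) with all 8 arrays and 2.60 ± 0.36 (SE, adjusted p = 0.000708) without wild type replicate 1. With median centring in place of quantile normalization it passed with all 8 arrays, at 2.40 (adjusted p = 0.0162). No detection calls were used, so whether the lowest DAN1 signals exceeded background was not tested.

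The neighbouring pair TIR2 and TIR4 did not pass the test with all 8 arrays and passed it without wild type replicate 1. TIR2 gave 10.30 in wild type replicate 1, 9.43 and 9.54 in replicates 2 and 3, 10.39, 10.36 and 10.62 in Δpde2, and 9.86 and 9.50 in Δpde2Δtpk3. Its difference between Δpde2 and wild type was 0.70 ± 0.24 (SE, adjusted p = 0.0542) with all 8 arrays and 0.98 ± 0.14 (SE, adjusted p = 0.000687) without wild type replicate 1. TIR4 gave 9.63 in wild type replicate 1, 8.00 and 8.18 in replicates 2 and 3, 9.49, 9.17 and 9.48 in Δpde2, and 8.15 and 8.10 in Δpde2Δtpk3. Wild type replicate 1 lay above all 3 Δpde2 arrays for TIR4, and the difference was 0.78 ± 0.40 (SE, adjusted p = 0.158) with all 8 arrays and 1.29 ± 0.12 (SE, adjusted p = 0.000141) without wild type replicate 1. DAN4 went the other way. DAN4 gave 10.49 in wild type replicate 1, 9.60 and 9.65 in replicates 2 and 3, 8.04, 7.83 and 7.95 in Δpde2, and 9.19 and 9.02 in Δpde2Δtpk3. The 3 strains did not overlap, with Δpde2 lowest and wild type highest, and DAN4 fell in Δpde2 by 1.97 on the log2 scale with all arrays (SE 0.24, adjusted p = 0.00111) and by 1.68 without wild type replicate 1 (SE 0.10, adjusted p = 2.44e-05). Over the 6 mannoproteins 2 rose (33.3%, against 19.5% of all genes), 1 fell (16.7%, against 21.9% of all genes) and 3 did not pass with all arrays (median 1.32). When wild type replicate 1 was left out, 5 rose (83.3%, against 31.4% of all genes) and 1 fell (16.7%, against 29.4% of all genes), with a median of 1.95. All 6 were more than 0.5 higher in wild type replicate 1 than in the other wild type arrays. Members of this family are alike in sequence, so their probe sets may share signal, which was not tested.

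**Figure D3:**
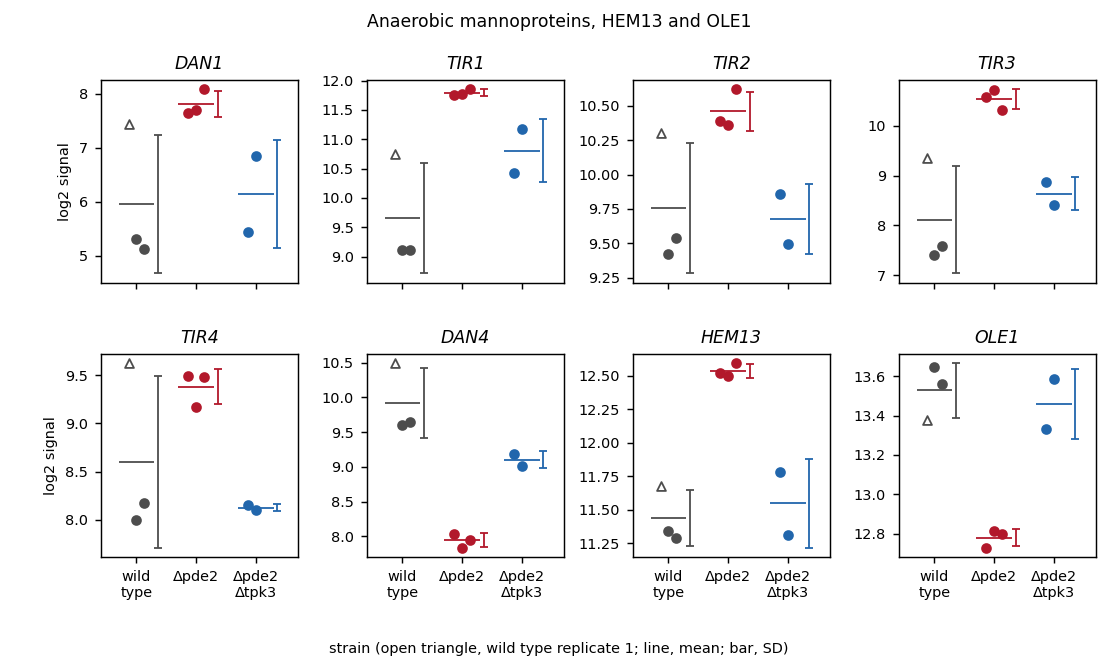
Log2 signal of the 6 mannoprotein genes, and of HEM13 and OLE1, on each array, by strain, with a line at each strain's mean, wild type replicate 1 drawn as an open triangle, and bars of 1 SD. Each panel has its own vertical axis, and Δpde2 is highest for TIR1, TIR3 and DAN1 and lowest for DAN4.

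Several of these genes lie side by side in the RefSeq annotation of the reference strain (assembly R64), and neighbours did not always move together. DAN1 (YJR150C) and DAN4 (YJR151C) are adjacent on chromosome X and had opposite signs in Δpde2 against wild type (2.60 and -1.68 without wild type replicate 1, both called). TIR4 (YOR009W), TIR2 (YOR010C) and AUS1 (YOR011W) follow each other on chromosome XV, and in the same fit TIR4 (1.29) and TIR2 (0.98) rose while AUS1 fell by 1.00. On chromosome IX PDR11 (YIL013C) and TIR3 (YIL011W), with YIL012W between them, also had opposite signs, and both were called with and without wild type replicate 1.

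Aus1p and Pdr11p are ATP-binding cassette transporters needed for sterol uptake, and both transcripts were lowest in Δpde2. AUS1 gave 10.64 in wild type replicate 1, 9.11 and 9.20 in replicates 2 and 3, 8.03, 8.27 and 8.15 in Δpde2, and 8.47 and 8.57 in Δpde2Δtpk3. PDR11 gave 10.53 in wild type replicate 1, 9.83 and 9.93 in replicates 2 and 3, 8.48, 8.46 and 8.59 in Δpde2, and 9.31 and 9.07 in Δpde2Δtpk3. For both genes the strains did not overlap and the Δpde2Δtpk3 arrays lay between the others. Against wild type, AUS1 differed in Δpde2 by -1.50 ± 0.39 (SE, adjusted p = 0.0195) with all 8 arrays and -1.0 ± 0.10 (SE, adjusted p = 0.000172) without wild type replicate 1. PDR11 differed by -1.58 ± 0.20 (SE, adjusted p = 0.00115) with all 8 arrays and -1.37 ± 0.10 (SE, adjusted p = 5.6e-05) without wild type replicate 1. The call with 8 arrays was lost for AUS1 when any 1 Δpde2 array was omitted (highest adjusted p = 0.068).

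Are1p and Are2p are the acyl-CoA:sterol acyltransferases that turn free sterol into steryl esters for storage, ARE2 being the main gene in aerobic cells and ARE1 the gene with the larger role without haem. ARE2 gave 9.75 in wild type replicate 1, 8.04 and 7.93 in replicates 2 and 3, 9.56, 9.53 and 9.64 in Δpde2, and 9.14 and 8.95 in Δpde2Δtpk3. ARE1 gave 10.94 in wild type replicate 1, 9.87 and 9.87 in replicates 2 and 3, 10.45, 10.41 and 10.54 in Δpde2, and 10.01 and 9.92 in Δpde2Δtpk3. Wild type replicate 1 exceeded every Δpde2 array for both genes, whereas wild type replicates 2 and 3 lay below all of them. With all 8 arrays neither passed the test, at 1.00 ± 0.45 (SE, adjusted p = 0.114) for ARE2 and 0.24 ± 0.28 (SE, adjusted p = 0.516) for ARE1. Without wild type replicate 1 both rose, ARE2 by 1.59 ± 0.10 (SE, adjusted p = 2.81e-05), a 3.02-fold difference, and ARE1 by 0.60 ± 0.09 (SE, adjusted p = 0.000793). In that fit the uptake genes fell and the esterification genes rose in Δpde2.

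**Figure D4:**
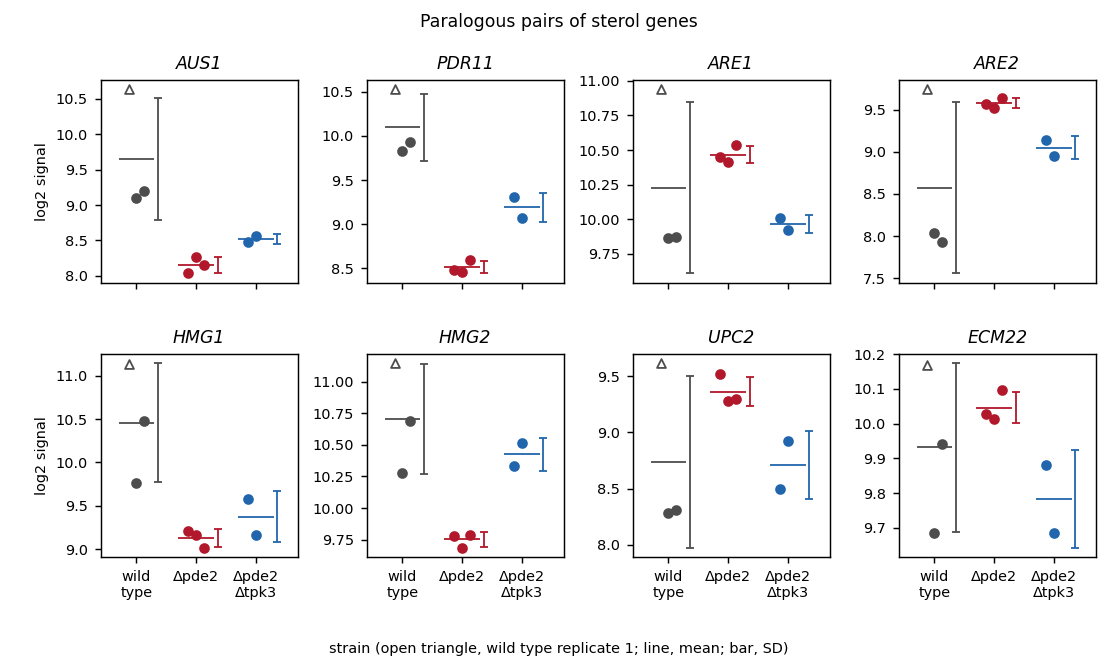
Log2 signal on each array for the paralogous pairs HMG1 and HMG2, UPC2 and ECM22, ARE1 and ARE2, and AUS1 and PDR11, by strain, with wild type replicate 1 as an open triangle, lines at the means and bars of 1 SD. Levels of different genes are not comparable, and HMG1, AUS1 and PDR11 are higher in every wild type array than in every mutant array.

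The mevalonate pathway was divided by step. HMG-CoA reductase, encoded by HMG1 and HMG2, makes mevalonate and is the main control point of the pathway. HMG1 gave 11.14 in wild type replicate 1, 9.76 and 10.47 in replicates 2 and 3, 9.21, 9.17 and 9.02 in Δpde2, and 9.58 and 9.16 in Δpde2Δtpk3. HMG2 gave 11.15 in wild type replicate 1, 10.27 and 10.69 in replicates 2 and 3, 9.78, 9.69 and 9.79 in Δpde2, and 10.33 and 10.52 in Δpde2Δtpk3. HMG1 was lower in every mutant array than in any wild type array, while for HMG2 the Δpde2 arrays alone lay below wild type. In Δpde2 HMG1 differed from wild type by -1.33 ± 0.33 (SE, adjusted p = 0.0163) with all 8 arrays and -0.99 ± 0.22 (SE, adjusted p = 0.00561) without wild type replicate 1. HMG2 differed by -0.95 ± 0.21 (SE, adjusted p = 0.0117) with all 8 arrays and -0.73 ± 0.14 (SE, adjusted p = 0.00263) without wild type replicate 1. ERG10, the acetoacetyl-CoA thiolase that opens the pathway, fell by 0.63 with all arrays (adjusted p = 0.0249) and by 0.45 without wild type replicate 1 (adjusted p = 0.00599). ERG13, HMG-CoA synthase, did not pass in either fit (-0.24 and -0.16). Calls with 8 arrays were lost for HMG1 when Δpde2 replicate 2 or 3 was omitted (highest adjusted p = 0.0611) and for ERG10 when any 1 Δpde2 array was omitted (highest adjusted p = 0.0875).

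The enzymes that act on mevalonate had the opposite sign. ERG12 gave 10.52 in wild type replicate 1, 10.52 and 10.38 in replicates 2 and 3, 11.30, 11.28 and 11.32 in Δpde2, and 10.89 and 10.78 in Δpde2Δtpk3. The strains did not overlap for this gene, which encodes mevalonate kinase, and it rose in Δpde2 by 0.83 ± 0.10 (SE, adjusted p = 0.00103) with all 8 arrays and 0.85 ± 0.09 (SE, adjusted p = 0.00019) without wild type replicate 1. ERG8, phosphomevalonate kinase, rose by 0.51 with all arrays (adjusted p = 0.00876) and by 0.47 without wild type replicate 1 (adjusted p = 0.00371). MVD1, mevalonate pyrophosphate decarboxylase, rose by 0.78 (adjusted p = 0.0147) and 0.98 (adjusted p = 0.000288) in the same fits. IDI1, isopentenyl diphosphate isomerase, depended on wild type replicate 1, where it read 10.89 against 12.47 and 12.46 in the other wild type arrays and 12.79, 12.83 and 12.86 in Δpde2. Its difference was 0.89 ± 0.41 (SE, adjusted p = 0.12) with all 8 arrays and 0.36 ± 0.11 (SE, adjusted p = 0.0194) without wild type replicate 1. ERG20, farnesyl pyrophosphate synthase, did not pass (-0.20 and -0.18). The 8-array call was lost for MVD1 when Δpde2 replicate 1 or 3 was omitted (highest adjusted p = 0.0587).

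From squalene to lanosterol only ERG9, squalene synthase, passed, rising by 0.40 with all arrays (adjusted p = 0.0246) and by 0.38 without wild type replicate 1 (adjusted p = 0.0142). That call was lost for ERG9 when wild type replicate 2 or any 1 Δpde2 array was omitted (highest adjusted p = 0.0985) and with median centring, at 0.32 (adjusted p = 0.0901). The squalene epoxidase gene ERG1 (-0.30) and the lanosterol synthase gene ERG7 (-0.32) did not pass in either fit. ERG11, the lanosterol demethylase inhibited by azole drugs, was -0.12 with all arrays and -0.03 without wild type replicate 1 (adjusted p = 0.438 and 0.76).

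Between lanosterol and zymosterol, 1 of 8 genes rose with all arrays (12.5%, against 19.5% of all genes). It was ERG26, a sterol dehydrogenase of the demethylation complex, at 0.58 ± 0.19 (SE, adjusted p = 0.0425), and this call was lost when any array other than wild type replicate 1 was omitted (highest adjusted p = 0.137). With median centring it was 0.54 (adjusted p = 0.0698). Without wild type replicate 1, 4 rose (50%, against 31.4% of all genes), namely ERG26 (0.78), NCP1 (0.43), ERG27 (0.36) and ERG25 (0.29), which encode the dehydrogenase, the reductase that passes electrons to the demethylase, the ketosterol reductase and the methylsterol oxidase. ERG24, the sterol reductase that follows the lanosterol demethylase, fell by 0.37 in that fit (adjusted p = 0.0347), while with all arrays it was -0.65 ± 0.24 (SE, adjusted p = 0.0681). ERG28, which tethers the demethylation enzymes, and ERG29 did not pass in either fit.

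In the last steps, from zymosterol to ergosterol, ERG6 rose and ERG3 and ERG5 fell. ERG6 gave 12.26 in wild type replicate 1, 11.97 and 11.67 in replicates 2 and 3, 12.86, 12.82 and 12.86 in Δpde2, and 12.34 and 12.31 in Δpde2Δtpk3. ERG6, the sterol methyltransferase, rose in Δpde2 by 0.88 ± 0.15 (SE, adjusted p = 0.00449) with all 8 arrays and 1.02 ± 0.10 (SE, adjusted p = 0.000188) without wild type replicate 1, and every Δpde2 array lay above every other array. The desaturases ERG3 and ERG5 fell by 0.62 and 0.60 with all arrays (adjusted p = 0.0232 and 0.0211) and by 0.47 and 0.51 without wild type replicate 1 (adjusted p = 0.0116 and 0.0176). ERG2, the sterol isomerase, passed without that array and not with it in this fit (0.46, adjusted p = 0.0149, against 0.20 with it). ERG4, the reductase of the final step, passed in neither fit (0.02 and 0.27). Calls with 8 arrays were lost for ERG3 when Δpde2 replicate 1 or 3 was omitted (highest adjusted p = 0.0882) and for ERG5 when wild type replicate 2 or Δpde2 replicate 1 or 3 was omitted (highest adjusted p = 0.0843).

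The oxygen-requiring enzymes outside the sterol pathway separated in opposite directions. Coproporphyrinogen oxidase, encoded by HEM13, uses oxygen to make haem, and its gene is a classical target of Rox1p. HEM13 gave 11.68 in wild type replicate 1, 11.34 and 11.29 in replicates 2 and 3, 12.52, 12.49 and 12.59 in Δpde2, and 11.78 and 11.31 in Δpde2Δtpk3. Only Δpde2 stood apart, with HEM13 higher than wild type by 1.10 ± 0.16 (SE, adjusted p = 0.00231) with all 8 arrays and 1.22 ± 0.14 (SE, adjusted p = 0.000272) without wild type replicate 1. OLE1 encodes the only fatty acid desaturase of yeast. OLE1 gave 13.38 in wild type replicate 1, 13.65 and 13.56 in replicates 2 and 3, 12.73, 12.81 and 12.80 in Δpde2, and 13.33 and 13.58 in Δpde2Δtpk3. Every Δpde2 array lay below every other array, and OLE1 differed from wild type by -0.75 ± 0.12 (SE, adjusted p = 0.00328) with all 8 arrays and -0.82 ± 0.10 (SE, adjusted p = 0.000394) without wild type replicate 1.

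Among the regulators, ROX1 fell and SUT1 rose in Δpde2. ROX1 gave 11.18 in wild type replicate 1, 11.60 and 11.42 in replicates 2 and 3, 10.87, 10.77 and 10.88 in Δpde2, and 11.36 and 11.27 in Δpde2Δtpk3. ROX1 differed from wild type by -0.56 ± 0.13 (SE, adjusted p = 0.014) with all 8 arrays and -0.67 ± 0.10 (SE, adjusted p = 0.000725) without wild type replicate 1, and the 8-array call was lost for ROX1 when Δpde2 replicate 2 was omitted (highest adjusted p = 0.0585). SUT1 encodes a zinc cluster factor that promotes sterol uptake and counteracts repression of hypoxic genes. SUT1 gave 10.16 in wild type replicate 1, 10.22 and 9.49 in replicates 2 and 3, 11.10, 10.96 and 11.06 in Δpde2, and 10.66 and 11.19 in Δpde2Δtpk3. Every mutant array exceeded every wild type array, and SUT1 rose in Δpde2 by 1.08 ± 0.23 (SE, adjusted p = 0.00901) with all 8 arrays and 1.19 ± 0.23 (SE, adjusted p = 0.00305) without wild type replicate 1.

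The sterol-sensing activators UPC2 and ECM22 differed in how far they depended on wild type replicate 1. UPC2 gave 9.62 in wild type replicate 1, 8.28 and 8.31 in replicates 2 and 3, 9.52, 9.28 and 9.29 in Δpde2, and 8.49 and 8.92 in Δpde2Δtpk3. Wild type replicate 1 lay above all Δpde2 arrays for UPC2, and its difference was 0.63 ± 0.36 (SE, adjusted p = 0.195) with all 8 arrays and 1.07 ± 0.14 (SE, adjusted p = 0.000561) without wild type replicate 1. ECM22 gave 10.17 in wild type replicate 1, 9.68 and 9.94 in replicates 2 and 3, 10.03, 10.01 and 10.10 in Δpde2, and 9.88 and 9.68 in Δpde2Δtpk3. ECM22 passed in neither fit, at 0.11 and 0.23 (adjusted p = 0.546 and 0.105). MGA2 encodes a membrane-bound activator of OLE1. MGA2 gave 7.89 in wild type replicate 1, 9.76 and 9.73 in replicates 2 and 3, 9.97, 9.76 and 9.86 in Δpde2, and 9.67 and 10.86 in Δpde2Δtpk3. It was lowest in wild type replicate 1 and highest in Δpde2Δtpk3 replicate 2, and it passed in no comparison with or without that wild type array.

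The comparison of Δpde2 with Δpde2Δtpk3 asks which differences went with TPK3. These strains also differ in the marker at PDE2 (KanMx or HIS3), whose part cannot be told apart from that of TPK3. Wild type arrays entered the comparison through the shared estimate of spread, the joint normalization and the choice of probe sets. Normalization was not repeated without wild type replicate 1 in this fit, so the estimates are the same with and without that array and only their errors change. With all 8 arrays ERG12 (0.47), ERG25 (0.61) and HEM13 (0.99) were higher in Δpde2, which is 3 of 42 genes (7.14%, against 5.56% of all genes). OLE1 and DAN4 were lower, by 0.68 and 1.16, which is 2 of 42 genes (4.76%, against 7.41% of all genes). Without wild type replicate 1, 15 were higher (35.7%, against 23.8% of all genes) and 6 were lower (14.3%, against 20.8% of all genes). A fit of the mutant arrays alone called 21 genes, and all of them were among those called without wild type replicate 1. The median over the 42 genes was 0.17, beside 0.02 over all genes. None of the 5 calls with all arrays held whichever array was left out: no gene passed when any 1 Δpde2 array or Δpde2Δtpk3 replicate 2 was left out, and 1 passed without Δpde2Δtpk3 replicate 1. With median centring 2 passed, HEM13 and OLE1.

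By role, the mannoproteins again differed most. TIR3 was higher in Δpde2 by 1.90 ± 0.55 (SE, adjusted p = 0.0665) with all 8 arrays and 1.90 ± 0.17 (SE, adjusted p = 0.000476) without wild type replicate 1. DAN1 (1.67), TIR4 (1.26), TIR1 (1.00) and TIR2 (0.78) passed without wild type replicate 1 and not with all arrays in this fit. DAN4 was lower by 1.16 in both fits (SE 0.27, adjusted p = 0.036 with all arrays, and SE 0.10, adjusted p = 0.000452 without that array). HEM13 was higher by 0.99 ± 0.18 (SE, adjusted p = 0.019) with all 8 arrays and 0.99 ± 0.14 (SE, adjusted p = 0.00174) without wild type replicate 1. OLE1 was lower by 0.68 (adjusted p = 0.0238 and 0.00226). Both importers were lower in Δpde2 without wild type replicate 1, at -0.68 for PDR11 and -0.37 for AUS1 (adjusted p = 0.00231 and 0.0208), and neither passed with all arrays (adjusted p = 0.0883 and 0.636).

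ARE2 (0.53), ARE1 (0.50) and UPC2 (0.66) were higher and ROX1 (-0.47) and HMG2 (-0.67) lower in Δpde2, each called without wild type replicate 1 and not with all arrays in this fit. Of the 25 sterol synthesis enzymes, 2 passed with all arrays, both higher (8%, against 5.56% of all genes). Without that array 6 were higher (24%, against 23.8% of all genes) and 1 was lower (4%, against 20.8% of all genes), so the share of higher genes was that of all genes. The 6 were ERG25 (0.61), ERG6 (0.52), ERG12 (0.47), IDI1 (0.44), NCP1 (0.36) and MVD1 (0.33). ERG25 gave 12.76 in wild type replicate 1, 12.50 and 12.43 in replicates 2 and 3, 12.71, 12.82 and 12.73 in Δpde2, and 12.14 and 12.14 in Δpde2Δtpk3. The Δpde2Δtpk3 arrays were the lowest of the 8 for this oxidase. HMG1 and SUT1, which changed in Δpde2 against wild type, did not pass between the mutants, with a difference of -0.24 ± 0.22 (SE, adjusted p = 0.393) for HMG1 and 0.12 ± 0.23 (SE, adjusted p = 0.701) for SUT1 without wild type replicate 1.

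Δpde2Δtpk3 was also set against wild type, a comparison that shares its arrays with both others. With all 8 arrays none of the 42 genes passed limma's test in either direction, against 1.03% of all genes higher and 1.69% lower. An unadjusted limma p under 0.05 was found for 12 of the 42 and for 1094 of all 5449 genes. Without wild type replicate 1, 9 were higher (21.4%, against 8.77% of all genes) and 5 were lower (11.9%, against 9.08% of all genes). The increases were TIR1 (1.69), TIR3 (1.15), SUT1 (1.07), ARE2 (1.06), MVD1 (0.65), ERG26 (0.64), ERG4 (0.56), ERG6 (0.50) and ERG12 (0.39). The decreases were ERG10 (-0.70), PDR11 (-0.69), AUS1 (-0.63), DAN4 (-0.52) and ERG25 (-0.33). This comparison then has 2 arrays on each side, and these calls were not made with all 8 arrays in the same fit. TIR1 had the largest increase in both fits, at 1.14 ± 0.50 (SE, adjusted p = 0.261) with all 8 arrays and 1.69 ± 0.22 (SE, adjusted p = 0.00358) without wild type replicate 1.

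Genes that act beside these 42 were read from lists of related genes. Yeast keeps pairs of genes of which a member is expressed in air and its partner at low oxygen, many of the latter under Rox1p. ANB1 gave 9.96 in wild type replicate 1, 8.10 and 8.35 in replicates 2 and 3, 11.71, 11.90 and 11.66 in Δpde2, and 9.85 and 10.40 in Δpde2Δtpk3. ANB1, the hypoxic gene for translation factor eIF5A, rose in Δpde2 against wild type by 2.96 ± 0.46 (SE, adjusted p = 0.00281) with all 8 arrays and 3.53 ± 0.17 (SE, adjusted p = 1.23e-05) without wild type replicate 1, while its aerobic partner HYP2 fell by 0.36 with all arrays and 0.30 without wild type replicate 1 (adjusted p = 0.028 and 0.0146). AAC3 gave 8.29 in wild type replicate 1, 7.04 and 7.21 in replicates 2 and 3, 10.57, 10.60 and 10.58 in Δpde2, and 9.03 and 8.58 in Δpde2Δtpk3. AAC3, the hypoxic ADP/ATP carrier, rose by 3.07 ± 0.32 (SE, adjusted p = 0.00065) with all 8 arrays and 3.46 ± 0.14 (SE, adjusted p = 5.31e-06) without wild type replicate 1, and its partner PET9 (also AAC2) fell by 0.43 with all arrays and 0.45 without wild type replicate 1 (adjusted p = 0.0158 and 0.00431). COX5B, the hypoxic subunit of cytochrome c oxidase, rose by 0.98 with all arrays and 1.10 without wild type replicate 1 (adjusted p = 0.00282 and 0.000241), and its partner COX5A fell by 0.95 with all arrays and 0.96 without wild type replicate 1 (adjusted p = 0.00065 and 0.000133). For cytochrome c, CYC1 fell by 0.97 with all arrays and 1.03 without wild type replicate 1 (adjusted p = 0.00362 and 0.00118), and CYC7 differed by 0.50 ± 0.26 (SE, adjusted p = 0.155) with all 8 arrays and 0.20 ± 0.11 (SE, adjusted p = 0.169) without wild type replicate 1. Calls with 8 arrays were lost for HYP2 when wild type replicate 3 or any 1 Δpde2 array was omitted (highest adjusted p = 0.106) and for PET9 when Δpde2 replicate 1 or 3 was omitted (highest adjusted p = 0.0735).

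Against Δpde2Δtpk3, AAC3 was higher in Δpde2 by 1.78 (adjusted p = 0.0236 with all arrays and 0.00035 without wild type replicate 1). COX5A, CYC1 and PET9 were lower by 0.74, 0.96 and 0.48, with adjusted p = 0.0129, 0.0204 and 0.0387 with all arrays and 0.00118, 0.00346 and 0.00581 without it. CYC7 was -0.37 in both fits, and passed without that array (adjusted p = 0.031, against 0.448 with it). ANB1 was 1.63 ± 0.52 (SE, adjusted p = 0.0855) with all 8 arrays and 1.63 ± 0.17 (SE, adjusted p = 0.000754) without wild type replicate 1. COX5B did not differ past the threshold between the mutants, at 0.06 ± 0.17 (SE, adjusted p = 0.862) with all 8 arrays and 0.06 ± 0.12 (SE, adjusted p = 0.706) without wild type replicate 1, and was higher in Δpde2Δtpk3 than in wild type by 0.92 ± 0.17 (SE, adjusted p = 0.0428) with all 8 arrays and 1.04 ± 0.13 (SE, adjusted p = 0.00357) without wild type replicate 1. Every array of the mutants exceeded every wild type array for COX5B. The 4 calls against Δpde2Δtpk3 were lost for AAC3 when any 1 Δpde2 array or either Δpde2Δtpk3 array was omitted (highest adjusted p = 0.143), for COX5A when Δpde2 replicate 1 or 3 or either Δpde2Δtpk3 array was omitted (highest adjusted p = 0.0756), for CYC1 when Δpde2 replicate 1 or 3 or either Δpde2Δtpk3 array was omitted (highest adjusted p = 0.0993) and for PET9 when wild type replicate 2 or 3 or any 1 Δpde2 array or either Δpde2Δtpk3 array was omitted (highest adjusted p = 0.152), and leaving out any 1 array other than wild type replicate 1 ended the COX5B call against wild type (highest adjusted p = 0.257).

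**Figure D5:**
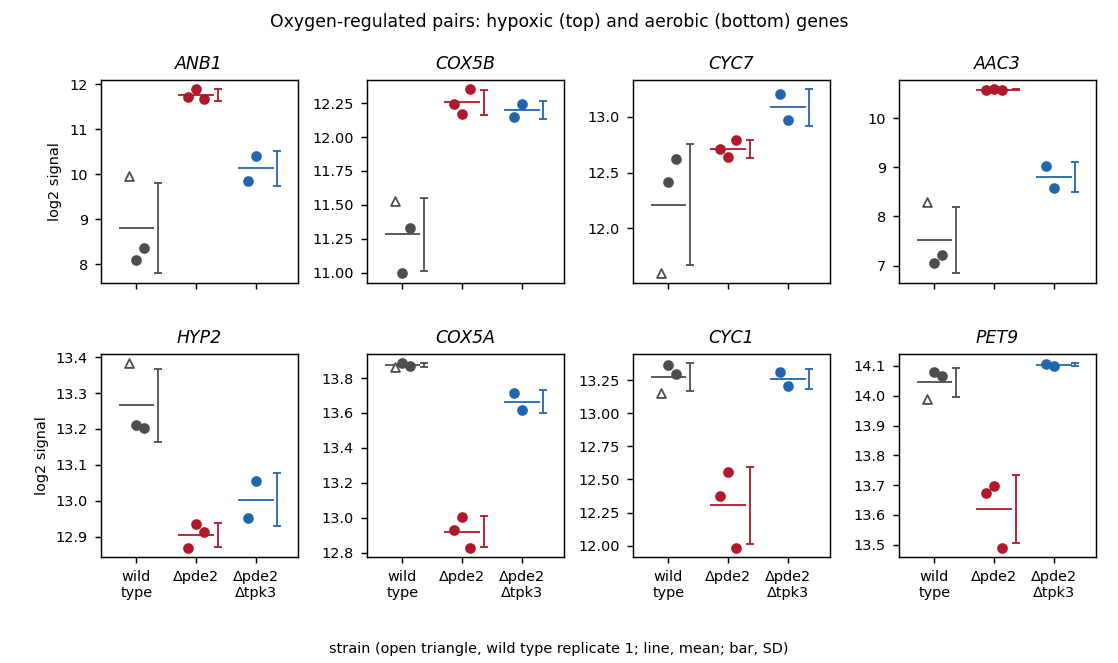
Log2 signal on each array for the pairs ANB1 and HYP2, COX5B and COX5A, CYC7 and CYC1, and AAC3 and PET9, by strain, with wild type replicate 1 as an open triangle, lines at the means and bars of 1 SD. Levels of different genes are not comparable, and ANB1 and AAC3 are highest and CYC1, COX5A and PET9 lowest in Δpde2.

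The seripauperins, small cell wall proteins related to the TIR family, had 13 of 24 listed genes measured. In Δpde2 against wild type 4 of them passed with all arrays, all higher (30.8%, against 19.5% of all genes) and led by PAU8 (1.37) and PAU14 (1.19). Leaving out wild type replicate 1, 7 passed, all higher (53.8%, against 31.4% of all genes), with PAU8 at 1.84 and PAU14 at 1.59. Against Δpde2Δtpk3 all 13 had a positive sign, 1 of them called with all arrays (7.69%, against 5.56% of all genes) and 10 without wild type replicate 1 (76.9%, against 23.8% of all genes). The gene called in both was PAU5 (1.21, adjusted p = 0.0267 and 0.000705). Near-identical members of this family may share probe signal. Of 7 other haem synthesis genes, 1 rose (14.3%, against 19.5% of all genes) and 3 fell (42.9%, against 21.9%) in Δpde2 against wild type with all arrays, and the same numbers rose and fell without wild type replicate 1 (against 31.4% and 29.4% of all genes). HEM15, ferrochelatase, fell by 1.00 with all arrays and 0.74 without wild type replicate 1 (adjusted p = 0.0107 and 0.000571), and HEM2, aminolevulinate dehydratase, by 0.88 with all arrays and 0.85 without wild type replicate 1 (adjusted p = 0.00137 and 0.000441), opposite in sign to HEM13. HEM2 was also lower in Δpde2 than in Δpde2Δtpk3 (-0.65, adjusted p = 0.0235 and 0.00346). Among 11 further regulators, 1 rose (9.09%, against 19.5% of all genes) and 3 fell (27.3%, against 21.9%) with all arrays, and 3 rose (27.3%, against 31.4%) and 3 fell (27.3%, against 29.4%) without wild type replicate 1. SUT2, the paralogue of SUT1, rose by 1.07 with all arrays and 1.43 without wild type replicate 1 (adjusted p = 0.0254 and 6.62e-05), and SPT23, the paralogue of MGA2, fell by 0.82 with all arrays and 0.95 without wild type replicate 1 (adjusted p = 0.00366 and 0.000195). HAP1 fell by 0.76 with all arrays and 0.81 without wild type replicate 1 (adjusted p = 0.0179 and 0.00875). MOT3, which encodes a repressor of DAN and TIR genes, fell by 0.73 with all arrays and 0.66 without wild type replicate 1 (adjusted p = 0.00587 and 0.00303). Among the related genes, calls with 8 arrays in Δpde2 against wild type were lost for PAU8 when wild type replicate 2 or 3 or any 1 Δpde2 array was omitted (highest adjusted p = 0.0766), for PAU14 when wild type replicate 2 or 3 or any 1 Δpde2 array was omitted (highest adjusted p = 0.0932), for SUT2 when wild type replicate 2 or 3 or any 1 Δpde2 array was omitted (highest adjusted p = 0.081) and for HAP1 when Δpde2 replicate 2 or 3 was omitted (highest adjusted p = 0.0686), and against Δpde2Δtpk3 for PAU5 when any 1 Δpde2 array or either Δpde2Δtpk3 array was omitted (highest adjusted p = 0.153) and for HEM2 when any 1 Δpde2 array or either Δpde2Δtpk3 array was omitted (highest adjusted p = 0.101).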

How the data were processed

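Total RNA was hybridised to Affymetrix Yeast 2 arrays. The deposited values were log2 signals, 1 per probe set and array. The authors' methods name limma; the summarisation and normalization behind the values are not given in the sources used here. The lower quartiles of the deposited columns ran from 9.00 to 9.38, above the tolerance of 0.1, so the arrays were quantile normalized. Of 5814 probe sets, 5498 named 1 gene and 316 none (platform annotation, 12 symbols updated through RefSeq). Where a gene had several probe sets (47 genes) the one with the highest mean was used, giving 5449 genes. All 3 strains entered 1 limma fit (lmFit, contrasts, eBayes, limma 3.58.1, R 4.3.3) with strain as the only term, adjusted over all genes by Benjamini-Hochberg, and called at an adjusted p under 0.05. The procedure was tested on simulated data in which a gene's noise had the same spread on all arrays. That test does not cover an array that stands apart, such as wild type replicate 1. Each count was repeated without wild type replicate 1, which left that array out of the fit but not of the normalization.

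The 42 genes and all lists were chosen with earlier results of these data known. Values on every array were to be given for genes called with a log2 change of at least 1, paralogous pairs, ROX1 and MGA2. DAN1, TIR2, TIR4, OLE1, ERG6, ERG12 and ERG25 were added after their values were seen, as were some genes of the related lists, of which those with the 2 largest called changes were to be named. Alternatives were median centring, values as deposited, normalization without wild type replicate 1, leaving out the lowest 33.3% of genes by signal, the mean of probe sets, only the strains compared, array weights, a replicate block, moderation with a trend and robust variances, and leaving out each array. Promoter motifs were not analysed here.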

Additional observations from a re-analysis of the deposited data

How the results depend on the processing

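Counts of the 42 genes called were recomputed under each alternative. Leaving out wild type replicate 1 also raised the shares of all genes called. For Δpde2 against wild type they went from 19.5% to 31.4% higher and from 21.9% to 29.4% lower. Between the mutants they went from 5.56% to 23.8% higher and from 7.41% to 20.8% lower. For Δpde2Δtpk3 against wild type they went from 1.03% to 8.77% higher and from 1.69% to 9.08% lower. Shares under the other alternatives are not given here. For Δpde2 against wild type, 20 genes were called with all arrays, 32 when normalization was repeated without wild type replicate 1, and 34 with array weights. For Δpde2 against Δpde2Δtpk3, 5 were called, against 2 with median centring, 21 with normalization repeated without wild type replicate 1, 21 with only the arrays of the strains compared, and 17 with array weights. For Δpde2Δtpk3 against wild type, 0 were called, against 14 with normalization repeated without wild type replicate 1, 1 with the genes of lowest signal left out, 1 with trended and robust moderation, and 13 with array weights. In that comparison with all arrays, an unadjusted limma p under 0.05 was found for 12 of the 42 and for 1094 of all 5449 genes. The array weight of wild type replicate 1 was 0.0520, the lowest of the 8. With each array left out in turn, the counts ran from 12 to 32, from 0 to 21 and from 0 to 14 in these comparisons, each upper end being without wild type replicate 1. Between the mutants, leaving out that array kept the estimates the same and changed only their errors. Why that array differs was not tested. With the replicate block the counts were 16, 0 and 0. Residuals of arrays with the same replicate number correlated at -0.0915 to 0.194. These values cannot show whether such arrays shared a batch, since residuals of the 2 Δpde2Δtpk3 arrays mirror each other (correlation -1). The labels give a replicate number only. The medians over the 42 genes moved by less than the spread between arrays (pooled SD 0.167) under every alternative. That spread includes wild type replicate 1, at 0.30 against -0.14 and -0.16 in replicates 2 and 3, so it is a loose yardstick for leaving that array out. The median for Δpde2Δtpk3 against wild type changed sign, from -0.09 with all arrays to 0.03 without wild type replicate 1. Over 34 single results and 564 values under alternatives, 468 kept their direction and side of the threshold, 27 gained a call, 69 lost their call and 0 changed sign. Some alternatives, such as trended moderation or leaving out an array of a strain not compared, leave the estimate unchanged, so its sign could not change there. The single results were those called, or at least 1 in size on the log2 scale, with all arrays. With 3, 3 and 2 arrays a strain, the spread is poorly known, and signals near the bottom of the range have no detection call.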

Other observations

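Genes that move and release sterols were listed but stand outside the 42 genes. Of 20 such genes, 2 rose (10%, against 19.5% of all genes) and 6 fell (30%, against 21.9%) in Δpde2 against wild type with all arrays. Without wild type replicate 1, 6 rose (30%, against 31.4% of all genes) and 6 fell (30%, against 29.4%), close to the shares over all genes. Of the steryl ester hydrolases, YEH2 rose by 1.00 with all arrays and 0.77 without wild type replicate 1 (limma, adjusted p = 0.00761 and 0.000403). YEH1 rose by 0.97 with all arrays and 1.38 without wild type replicate 1 (adjusted p = 0.0499 and 8.58e-05). The hydrolase gene TGL1 passed in neither fit, at 0.055 and -0.009 (adjusted p = 0.748 and 0.952). NCR1 and NPC2, the yeast counterparts of the human Niemann-Pick type C proteins, fell, NCR1 by 1.52 with all arrays and 1.46 without wild type replicate 1 (adjusted p = 0.000288 and 4.94e-05) and NPC2 by 1.15 with all arrays and 0.99 without wild type replicate 1 (adjusted p = 0.00188 and 0.000194). PRY1, a secreted sterol-binding protein, fell by 1.38 with all arrays and 1.34 without wild type replicate 1 (adjusted p = 0.000403 and 8.39e-05). Of 11 genes of fatty acid synthesis and activation, 1 rose (9.09%, against 19.5% of all genes) and 1 fell (9.09%, against 21.9%) with all arrays. With that array left out, 4 rose (36.4%, against 31.4%), namely FAA1, ELO1, ELO3 and IFA38, and 3 fell (27.3%, against 29.4%), namely ACC1, FAS1 and TSC13. FAA1, a fatty acyl-CoA synthetase, rose by 0.72 with all arrays and 0.64 without wild type replicate 1 (adjusted p = 0.00275 and 0.000557), and FAS1, the beta subunit of fatty acid synthase, fell by 0.89 with all arrays and 0.85 without wild type replicate 1 (adjusted p = 0.000995 and 0.000221). FAS1 was also lower in Δpde2 than in Δpde2Δtpk3, by 0.60 (adjusted p = 0.0219 and 0.00231). Calls with 8 arrays were lost for YEH1 when wild type replicate 2 or 3 or any 1 Δpde2 array or either Δpde2Δtpk3 array was omitted (highest adjusted p = 0.131) against wild type and for FAS1 when any 1 Δpde2 array or either Δpde2Δtpk3 array was omitted (highest adjusted p = 0.123) against Δpde2Δtpk3. Members of these lists were chosen with earlier results of these data known.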
